A study of Mus musculus with 46 samples.

Results

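The comparison described here is the second day of oxygen breathing in the wild type mouse lung: lungs after 48 h in 100% oxygen against lungs after 24 h in 100% oxygen. Its members were the arrays whose titles name wild type lung at 48 h or at 24 h, 11 of the 46 arrays of the series: 6 at 48 h and 5 at 24 h. RNA of each lung sample was hybridised to 3 Affymetrix mouse designs, called array types A, B and C here, which measure different sets of transcripts. At 48 h each type had samples 1a and 1b, and at 24 h types B and C had both samples while type A had sample 1b alone. The series also holds lungs of mice with a mutated Nrf2 gene exposed for the same times, used for comparison. Lungs of both genotypes at 72 h are given as levels and were not tested against other times. Their arrays did enter the fit, and so the filter and the estimate of spread behind every p-value. Unexposed lungs were not used here. The labels state that the animals breathed 100% oxygen, and they give no strain, age or sex. They do not say whether 1a and 1b were separate animals, so p-values measure the spread between these samples, which may be technical.

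High oxygen injures the lung through reactive oxygen species. The gas exchange surface, built of thin type 1 cells, surfactant-making type 2 cells and capillary endothelium, is damaged over days, fluid and plasma proteins enter the air spaces, and neutrophils and monocytes arrive from the blood. NRF2, the transcription factor encoded by Nfe2l2, drives genes of glutathione synthesis and detoxification, and p53 and ATF4 drive genes of growth arrest and amino acid supply under stress.

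The arrays carried the markers of whole lung. Sftpc, the surfactant protein C of type 2 cells, had an intensity of 10874 and 14526 at 48 h and 12776 on the single type A array at 24 h. The airway secretory gene Scgb1a1 had 21255 and 30133 at 48 h against 24264 at 24 h, and Ager of type 1 cells had 16752 and 16408 against 19457. The surfactant protein Sftpa1 on type C had 89602 and 100518 at 48 h against 90746 and 129648 at 24 h, and the endothelial gene Pecam1 had 360.4 and 435 against 299.8. Nfe2l2 had 3338 and 4488 in wild type lungs at 48 h and 3425 at 24 h, while the mutant lungs had 388 and 404 at 48 h and 424 and 303 at 24 h, which checks the genotype labels. Replicate arrays correlated at r of 0.912 to 0.971 at 48 h and 0.903 to 0.947 at 24 h. The type A array at 24 h had no replicate to set it against, and of the other oxygen arrays it correlated best with a mutant array at 48 h (r = 0.962). The ratio of 3' to 5' actin probe sets, a sign of RNA integrity, was 0.892 and 0.931 at wild type 48 h on type A against 1.18 on the 24 h array, above the 0.626 to 1.04 of the other 10 oxygen arrays of that type; the Gapdh ratios were 1.19 and 1.05 against 1.19. On types B and C the Gapdh ratio was 0.984 to 1.24 at 48 h, against 1.41 and 1.41 for 24 h sample 1b and 0.938 and 0.995 for 24 h sample 1a. The part of RNA quality in the differences below was not tested.

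Few single transcripts separated the second day from the first beyond the spread between arrays. Of 25908 probe sets tested, 11 passed an adjusted p of 0.05 (limma with Benjamini-Hochberg adjustment), 0.0425% of all: 8 were higher and 3 lower at 48 h, 4 of them on type A, 7 on type B and 0 on type C. Without that adjustment 2188 probe sets had p under 0.05, 1134 higher and 1054 lower. The calls depended on single arrays and on the spread borrowed from the other oxygen groups. In limma, with 48 h sample 1a left out 0 passed (1785 at an unadjusted p under 0.05), and with 48 h sample 1b left out 0 (1687). With 24 h sample 1b left out 0 passed on types B and C (1214), with 24 h sample 1a left out 7 passed, and a limma fit to the 48 h and 24 h groups alone passed 0 (2530).

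**Figure D1:**
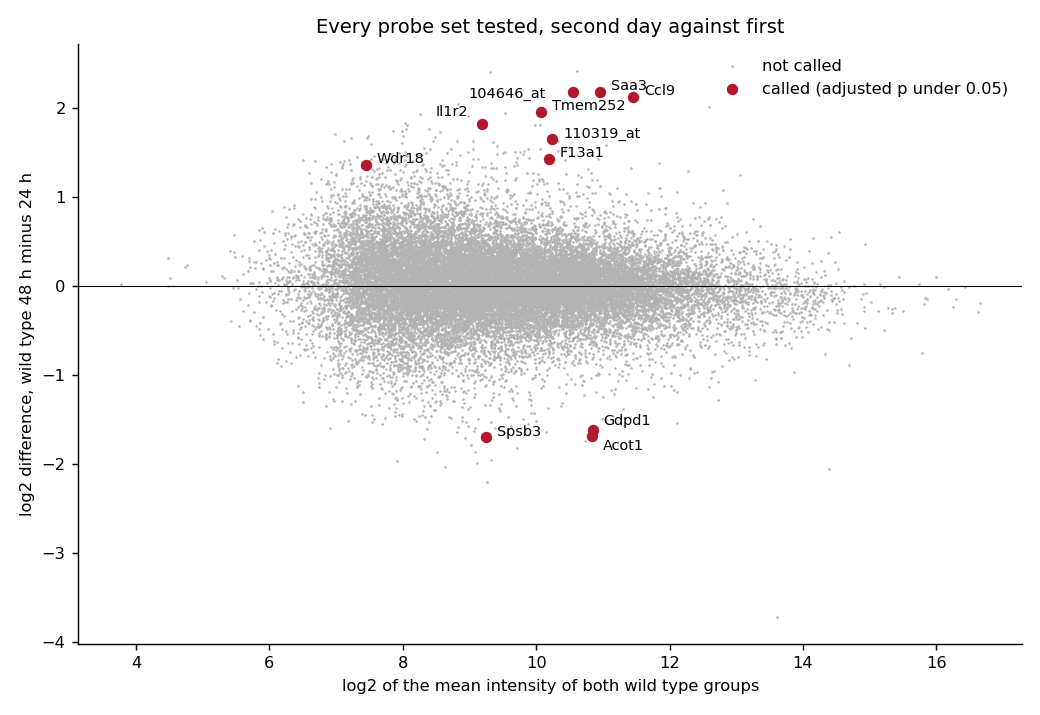
Each point is 1 probe set: the horizontal axis is the log2 of its mean intensity over both wild type groups and the vertical axis is its log2 difference, 48 h minus 24 h. The 11 called probe sets are red and named by gene or, for the 2 without a gene name, by probe set; 8 lie above 0 and 3 below, and the lowest grey point is a probe set without a gene name that was not called.

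Among the called rises, 8 in all, the largest was that of Saa3. Saa3, an acute-phase serum amyloid A protein made in inflamed tissue and by macrophages, had an intensity of 3432 and 3213 at 48 h against 669 at 24 h. Its difference was 2.19 ± 0.24 on the log2 scale (SE; adjusted p = 0.0244), or 4.55-fold. At 72 h its level was 7067 and 7041, above both earlier times on both arrays. Ccl9, a chemokine that attracts myeloid cells, had 4503 and 4730.4 at 48 h against 992 at 24 h, a rise of 4.39-fold (log2 2.13 ± 0.24, adjusted p = 0.0244). Its 72 h level of 3118 and 3938 lay below both 48 h arrays and above the 24 h array. Il1r2, the decoy receptor that binds interleukin-1 without signalling, had 909 and 1001 against 213, a rise of 3.55-fold (log2 1.83 ± 0.19, adjusted p = 0.0244), and 795 and 880.3 at 72 h. The Il1r2 probe set that was called carries a suffix for probes that may match related sequences, and a second, brighter Il1r2 probe set had 1.57 ± 0.41 (adjusted p = 0.32). All 3 of these genes were measured on type A, where the 24 h group is 1 array.

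Tmem252, a small transmembrane protein gene, and F13a1, the A subunit of coagulation factor XIII that cross-links fibrin and is also made by macrophages, had 2 arrays in each group. Tmem252 had 1819.7 and 1734 at 48 h against 336 and 400.4 at 24 h, a rise of 3.89-fold (log2 1.96 ± 0.18, adjusted p = 0.00684), and 2433 and 2118 at 72 h. F13a1 had 1763 and 1766 against 618 and 544, a rise of 2.69-fold (log2 1.43 ± 0.18, adjusted p = 0.031). Its 72 h arrays, at 1709 and 1695, stood close to those of 48 h. A second F13a1 probe set, on type C, had 7455 and 12520.2 at 48 h against 2765 and 1925 at 24 h, with a log2 difference of 2.02 ± 0.33 (adjusted p = 0.107). Wdr18, a gene of ribosome assembly, had 286 and 324 against 42.3 and 46.3 and 46.8 and 54.9 at 72 h (log2 1.37 ± 0.18, adjusted p = 0.0438). Its 24 h arrays lay under the intensity required of a measured probe set on type B, so no fold is given. With the replicate numbers as a block its adjusted p was 0.057. A brighter Wdr18 probe set on type B had a log2 difference of 0.35 (adjusted p = 0.755) and the one on type C 0.09. The 2 called probe sets without a gene name in the annotation used here were 1 on type A, with 2862 and 2175 at 48 h against 491 at 24 h, and 1 on type B, with 1955 and 1837 against 555 and 489.

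The proximal promoters of Saa3 and Ccl9, the named genes with the largest called rises, are shown because sites for inflammatory transcription factors are known in genes of this kind. Both are from RefSeq (GRCm38.p6), 250 bases before to 50 bases after the start, read on the gene's strand, at chr7:46715627-46715926 on the minus strand for Saa3 and chr11:83578587-83578886 on the minus strand for Ccl9.
Saa3: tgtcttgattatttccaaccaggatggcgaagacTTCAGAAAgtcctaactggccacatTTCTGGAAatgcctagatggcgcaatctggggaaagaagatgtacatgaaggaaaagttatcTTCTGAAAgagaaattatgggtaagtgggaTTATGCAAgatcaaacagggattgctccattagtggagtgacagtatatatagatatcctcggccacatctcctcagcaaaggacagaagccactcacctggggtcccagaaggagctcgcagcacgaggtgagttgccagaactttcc
Ccl9: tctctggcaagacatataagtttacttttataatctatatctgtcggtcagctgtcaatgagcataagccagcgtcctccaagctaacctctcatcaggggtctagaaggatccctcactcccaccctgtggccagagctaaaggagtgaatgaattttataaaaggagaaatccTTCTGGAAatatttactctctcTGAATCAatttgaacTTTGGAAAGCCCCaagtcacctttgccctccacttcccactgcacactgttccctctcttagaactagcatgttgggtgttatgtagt
Capitals mark matches on either strand to the C/EBP pattern TTNNGNAA in both genes and, in Ccl9, also to the AP-1 pattern TGANTCA and to the NF-kB motif. Saa3 held 4 matches to the C/EBP pattern and no match to the AP-1 pattern or the NF-kB motif. Ccl9 held 2, 1 of them overlapping its single NF-kB match, and 1 AP-1 match. Of the 32851 promoter windows in the same table, 40.7% held the C/EBP pattern, 7.81% the AP-1 pattern and 5.8% the NF-kB motif. These shares are of windows with at least 1 match, and windows with 4 were not counted. A match is a run of letters and not a shown binding site.

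The called falls were those of Acot1, Gdpd1 and Spsb3. Acot1, a thioesterase that releases free fatty acids from coenzyme A, had 834 and 779.7 at 48 h against 2715 and 3004 at 24 h and fell 3.21-fold (log2 -1.68 ± 0.16, adjusted p = 0.00684). A second Acot1 probe set on type A had a log2 difference of -1.31 ± 0.21 (adjusted p = 0.107), and close paralogues of this gene may share probes. Gdpd1, a lysophospholipase D, had 865 and 825 against 2693 and 2994 and fell 3.07-fold (log2 -1.62 ± 0.15, adjusted p = 0.00684). A second, brighter Gdpd1 probe set on type B did not follow it, with 3232 and 3305 at 48 h against 3004 and 3444 at 24 h (log2 0.02, adjusted p = 0.984). At 72 h the called probe sets had 1639 and 1853 for Acot1 and 2291 and 2433 for Gdpd1, above the 48 h arrays and below the 24 h arrays. Spsb3, a SOCS box protein of ubiquitin ligases, had 166 and 284 at 48 h against 871 and 1112 at 24 h (log2 -1.70 ± 0.20, adjusted p = 0.0244) and 927 and 984 at 72 h. The mean of its 48 h arrays, 225, lay under the intensity required of a measured probe set, so no fold is given. All 3 transcripts were thus above their 48 h levels on both 72 h arrays. For every named gene called in this comparison the 48 h arrays and the 24 h arrays did not overlap, which the naming rule required.

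**Figure D2:**
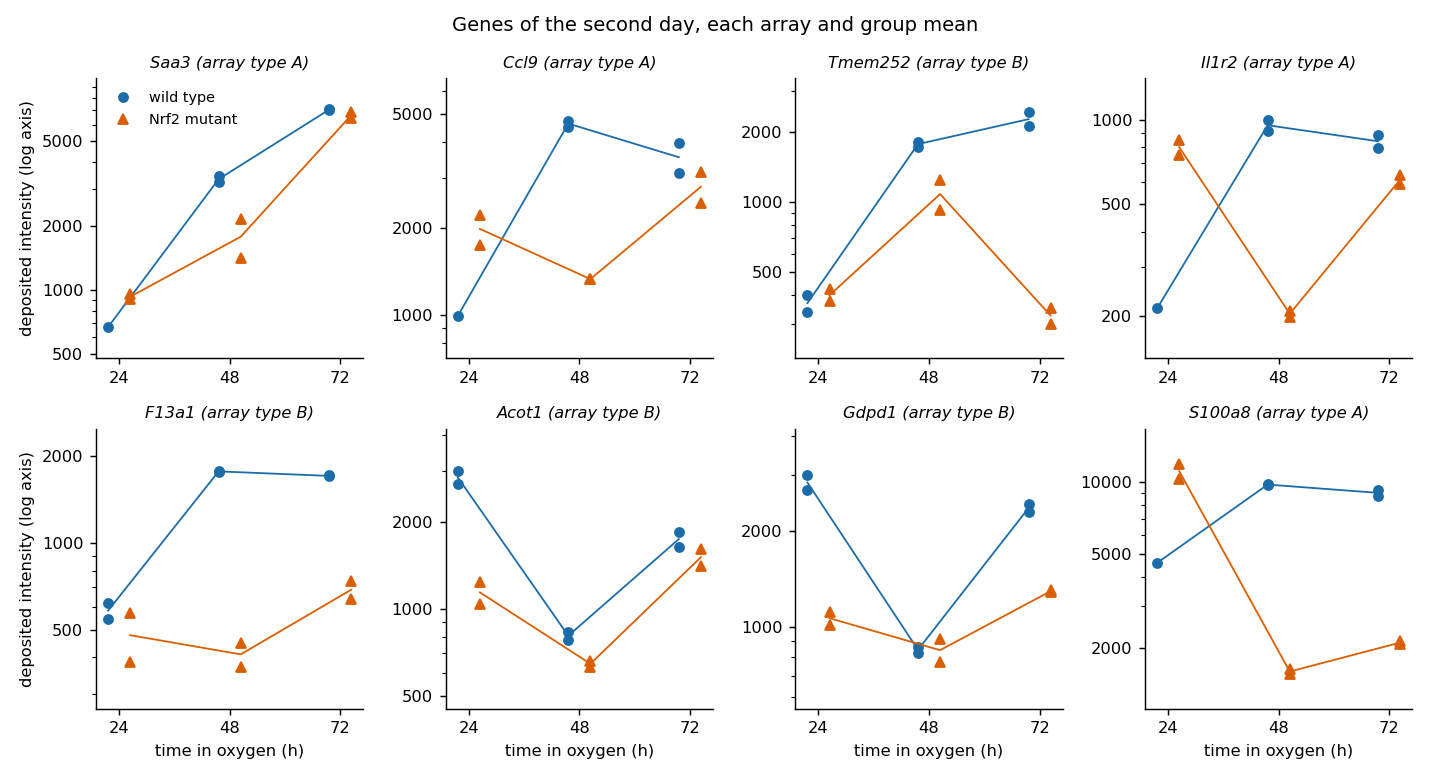
Deposited intensity on a log axis against time in oxygen for 7 called genes and S100a8; circles are wild type arrays, triangles Nrf2 mutant arrays, and lines join group means. In wild type lungs Saa3, Ccl9, Tmem252, Il1r2 and F13a1 were higher at 48 h than at 24 h and Acot1 and Gdpd1 lower, while Il1r2 and S100a8 in the mutant were lower at 48 h.

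The probe sets named next, by smallest p, did not pass the adjustment. The naming rule required a gene name and arrays without overlap between the times. It also required a mean above the required intensity at 48 h or 24 h. Among the higher ones were the monocyte chemokine receptor Ccr1, with 734 and 902 at 48 h against 322 and 278 at 24 h (log2 1.15, adjusted p = 0.0602; 0.58 at its type A probe set), and Ifitm6, an interferon-induced transmembrane family gene of myeloid cells, with 1885 and 2001 against 627 (log2 1.52, adjusted p = 0.0614). The matrix proteoglycan Vcan had 697 and 546 against 131, the 24 h array under the required intensity (adjusted p = 0.0762) and the clock repressor Nr1d2 13131 and 10879 against 5070.4 and 4842 (adjusted p = 0.0776). The methyltransferase-family gene Smyd5 and the splicing factor Tra2a completed that side, with log2 differences of 1.69 and 1.49 from 24 h arrays below the required intensity. Their other probe sets had smaller differences. The brightest Smyd5 probe set had 0.20 (adjusted p = 0.912) and the others 0.45 and 0.64. The brightest Tra2a probe set had 2516 and 2805 at 48 h against 2910 and 2409 at 24 h, which overlap, with a log2 difference of 0.004 (adjusted p = 0.999), and the other had 0.23.

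On the lower side the secreted matrix protein Spon2 had 136 and 161 at 48 h against 1374 and 791 at 24 h (log2 -2.20, adjusted p = 0.0762), the 48 h arrays under the required intensity, although a second Spon2 probe set went the other way, at 1.33. The muscle myosin light chain Myl1 had 251 and 195 against 845 (log2 -1.63, adjusted p = 0.0762). Fam172a had 409.8 and 333 against 894 and 965 (log2 -1.10). Its brightest probe set had 676 and 759 at 48 h against 1082 and 687 at 24 h, which overlap (log2 -0.24, adjusted p = 0.844), and the other 2 had differences of 0.46 and -0.31. The tight junction gene Cldn10 had 1011 and 1051 against 2528 and 2057 (log2 -1.06, adjusted p = 0.0801), and the smooth muscle gene Cnn1, calponin, 686 and 608 against 1516 (log2 -1.14, adjusted p = 0.11). The deubiquitinase gene Stambpl1 had 714 and 733 against 1544 and 1583 (adjusted p = 0.11), and Wfdc21 171 and 201 against 564 (log2 -1.28). The 48 h mean of Wfdc21, 186, lay under the required intensity. Iqch and the galactosyltransferase gene B4galt2 had log2 differences of -1.61 and -1.25 with 48 h arrays below the required intensity.

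Gene groups were described by lists, each gene taken at its brightest probe set. Of the 13116 genes tested, 4.12% were higher and 4.79% lower at 48 h at an unadjusted p under 0.05, and the median difference was 0.00172 on the log2 scale. The counts of the lists are to be read against these shares. Below, "nominally" means at that unadjusted p; other than Saa3 and Ccl9, no member of any of the 41 lists was called at its brightest probe set in the wild type comparison. Because whole lung was measured, fewer cells of a type and less RNA per cell cannot be told apart.

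**Figure D3:**
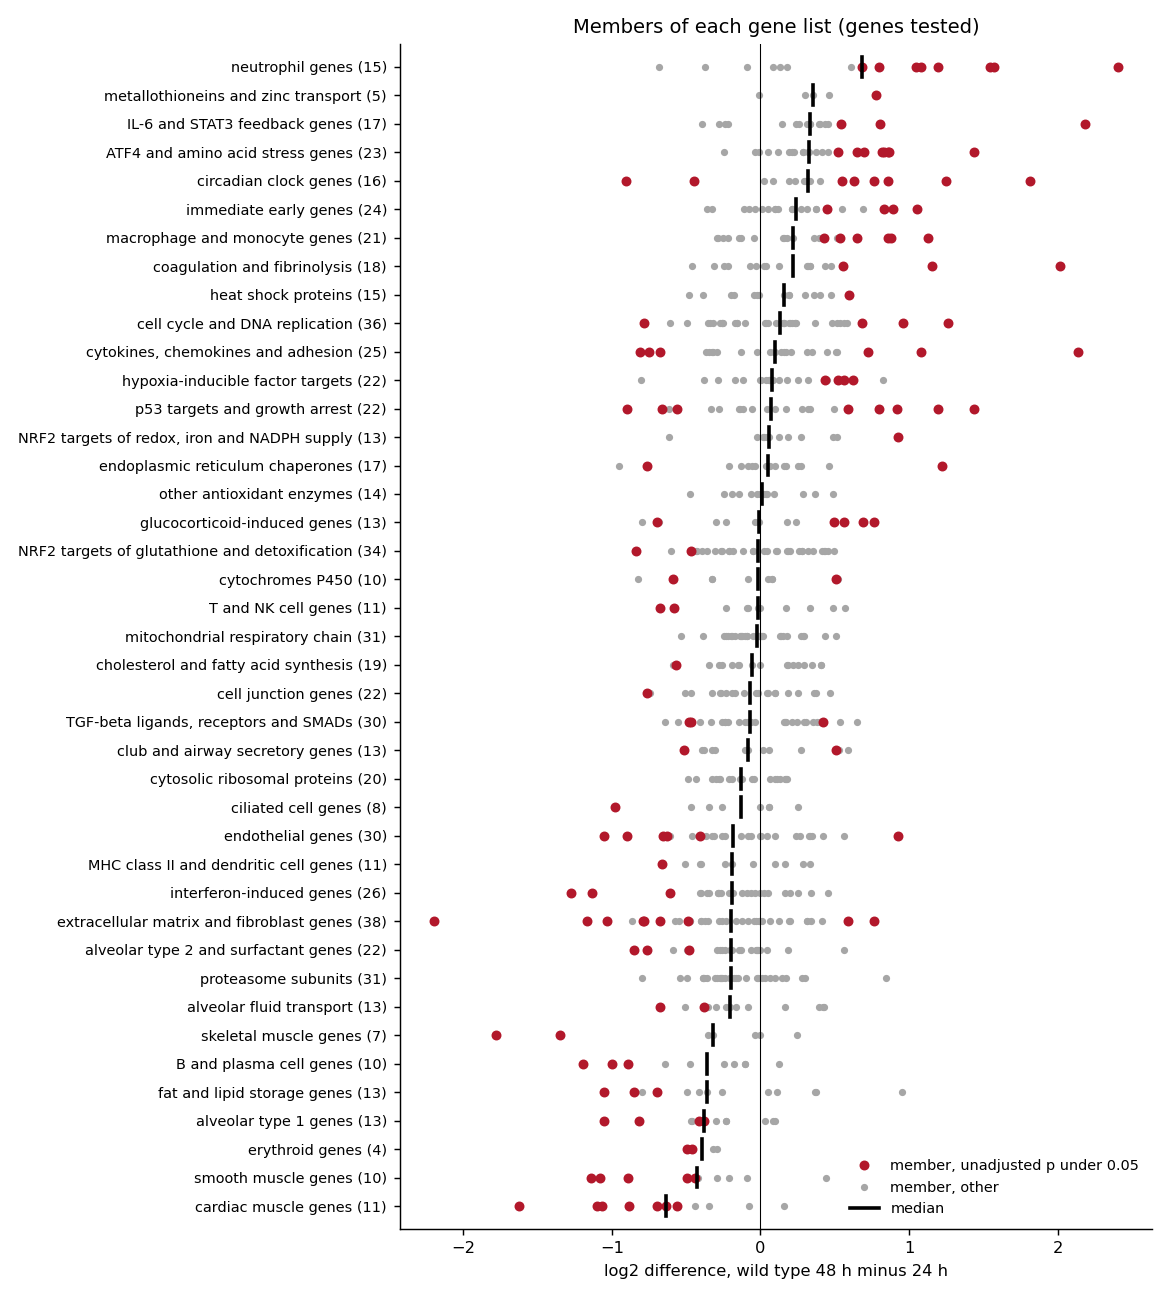
Each row is 1 gene list with the number of genes tested in brackets, and each point is 1 member's log2 difference, wild type 48 h minus 24 h; red points have an unadjusted p under 0.05 and black bars are medians. The neutrophil list has the highest median, 0.68, and the cardiac muscle list the lowest, -0.64.

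Neutrophil genes had the highest median of the lists. Of 15 tested, 8 were nominally higher and 0 lower, with a median of 0.68. S100a8 and S100a9 encode the subunits of calprotectin, which fills the neutrophil cytosol. S100a8 had 9822 and 9647 at 48 h against 4565 at 24 h (log2 1.08, adjusted p = 0.133), and S100a9 had 4165 and 4758 against 2114 (log2 1.05, adjusted p = 0.246). Mmp8, neutrophil collagenase, had 826 and 1430.3 against 143 (log2 2.41, adjusted p = 0.137), the 24 h array under the required intensity, and Mmp9, gelatinase B, 1447 and 1416 against 440.4 (log2 1.54, adjusted p = 0.256). The summed intensity of the 15 genes was 29826 and 29002.5 at 48 h and 19187 at 24 h, all on type A, where 24 h is 1 array. Bright members such as S100a8 weigh most in this sum. Whether a larger neutrophil share accounts for other rises was not tested.

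Macrophage and monocyte genes were nominally higher in 6 of 21 and lower in 0 (median 0.22). Ccr2, the receptor that draws monocytes into tissue, had 1449 and 1285 at 48 h against 583 at 24 h (log2 1.13, adjusted p = 0.23). Cd14, the endotoxin co-receptor, had 5349 and 4961 against 2769 (log2 0.88, adjusted p = 0.23). The list of cytokines, chemokines and adhesion genes was split, with 3 of 25 nominally higher and 3 lower. Beside Ccl9, Il1b had 1049 and 1237 against 659 (log2 0.73), whereas the epithelial neutrophil chemokines Cxcl5, with 162 and 237 against 404, and Cxcl15, with 37878 and 45857 against 60358 and 81554, were nominally lower. Genes of IL-6 and STAT3 feedback were nominally higher in 3 of 17 and lower in 0 (median 0.33): Saa3, the cytokine brake Socs3 (904 and 886 at 48 h against 479.7 at 24 h) and Stat3 itself (3249.8 and 2958 against 2103). Coagulation and fibrinolysis genes were nominally higher in 3 of 18, F13a1 with the smallest p, and lower in 0.

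B and plasma cell genes were nominally lower in 3 of 10 and higher in 0 (median -0.36): the B cell receptor subunits Cd79b, with 637 and 663 at 48 h against 1376 at 24 h, and Cd79a, with 866 and 839 against 1644, and Ms4a1, which encodes CD20, with 813 and 822 against 1973. The counts were 2 lower and 0 higher of 11 T and NK cell genes, whose median of -0.02 changed sign with the settings (-0.168 to 0.0869), and 1 lower and 0 higher of 11 MHC class II and dendritic cell genes. Of 26 interferon-induced genes, 3 were nominally lower and 0 higher (median -0.19). The smallest p among them was that of Xaf1, a proapoptotic interferon target, with 3398 and 4491 at 48 h against 10002 and 9207 at 24 h.

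Of 23 ATF4 and amino acid stress genes, 8 were nominally higher and 0 lower (median 0.32). Sesn2, a sestrin that restrains mTORC1 and belongs to the p53 list too, had 2968 and 2792 at 48 h against 1042 and 959 at 24 h (log2 1.44 ± 0.26, adjusted p = 0.137). Asns, asparagine synthetase, had 4309 and 4487 against 2383 and reached 7433 and 7249 at 72 h. The mitochondrial folate enzyme Mthfd2 had 2244 and 2576 against 1315 and the amino acid carrier Slc7a5 1286 and 1549.5 against 767. Of 22 p53 targets, 5 were nominally higher and 3 lower, with a median of 0.07 whose sign depended on the settings (-0.00522 to 0.327). The zinc finger gene Zmat3 had 1288 and 1531 against 571 and Gadd45a, a DNA damage gene, 1357 and 1520.2 against 722. Cdkn1a, which encodes the cell cycle inhibitor p21, had 3828 and 3564 at 48 h against 2599.7 at 24 h (log2 0.49, adjusted p = 0.656). Cell cycle and replication genes were nominally higher in 3 of 36 and lower in 1.

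Few NRF2 targets differed nominally between the days. Of 34 targets of glutathione and detoxification, 0 were nominally higher and 2 lower (median -0.0148), the lower being the aldehyde dehydrogenase Aldh3a1 (836 and 673 at 48 h against 1400.2 at 24 h) and the carboxylesterase Ces1f (574 and 634 against 908 and 853). Of 13 targets of redox, iron and NADPH supply, 1 was nominally higher, the pentose phosphate enzyme Pgd with 3960.4 and 3628 against 1959, and 0 were lower. Gclc, the catalytic subunit of glutathione synthesis, had 2502 and 2618 against 1849.9 (adjusted p = 0.666), and 4688 and 6032 at 72 h. A dimmer Gclc probe set on type B had 387 and 526 at 48 h against 48.8 and 64.7 at 24 h. Its log2 difference was 1.69 (limma, unadjusted p = 0.000366, adjusted p = 0.15), from 24 h arrays under the required intensity. The heme-degrading Hmox1 had 5244 and 5112 against 3594 (adjusted p = 0.692), and the quinone reductase Nqo1 196 and 219.6 against 146. The other antioxidant enzymes had 0 higher and 0 lower of 14. The metal-binding Mt1, the 1 of 5 in the metallothionein and zinc list that was nominally higher, had 7696 and 6336 against 4048 and 14029.7 and 16177 at 72 h. A dimmer Mt1 probe set on type B had a log2 difference of 0.06. Mt2 had 13844 and 14893 against 10387 (adjusted p = 0.631).

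Clock genes were more often nominally higher than lower at 48 h. Of 16 tested, 6 were nominally higher and 2 lower (median 0.32). Nr1d2, a heme-binding nuclear receptor that represses clock activators, had 13131 and 10879 at 48 h against 5070.4 and 4842 at 24 h, and its type A probe set had a log2 difference of 1.07. The PAR-domain factor Dbp had 497 and 417 at 48 h against 74.5 at 24 h, the 24 h array under the required intensity (adjusted p = 0.187), and its relative Hlf had 551 and 505 against 308 and 290.0 (adjusted p = 0.331). The period gene Per1 had 2031 and 1819 against 1098 and, at 72 h, 925 and 843, below both earlier times. The labels give no hour of day for tissue collection, so time in oxygen and clock time cannot be told apart. Per1 had 2 promoter windows, and the one at chr11:69098699-69098998 on the plus strand (RefSeq, GRCm38.p6, same bounds) is shown. It was picked by its number of matches to the classical clock elements and holds both.
Per1: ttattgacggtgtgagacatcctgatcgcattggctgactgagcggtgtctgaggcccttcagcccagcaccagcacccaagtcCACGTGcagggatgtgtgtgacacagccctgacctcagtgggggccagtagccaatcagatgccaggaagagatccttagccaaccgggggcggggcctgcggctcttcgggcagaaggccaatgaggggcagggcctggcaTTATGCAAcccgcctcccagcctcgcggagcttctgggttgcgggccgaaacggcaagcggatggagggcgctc
Capitals mark an E-box, CACGTG, the element bound by CLOCK and BMAL1, and a D-box, TTATGNAA, the element bound by DBP and HLF; the D-box pattern is a special case of the C/EBP pattern above. In the promoter table, 14 of the 16 clock genes tested had 18 windows, of which 6 held an E-box and 2 a D-box, or 33.3% and 11.1%. Of all 32851 windows, 7.15% held an E-box and 3.38% a D-box.

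Immediate early genes were nominally higher in 4 of 24 and lower in 0 (median 0.24). The AP-1 subunit Fosl2 had 7485 and 7244 at 48 h against 4076 and 3771 at 24 h (adjusted p = 0.11). Fos, another AP-1 subunit, had 2764 and 3172 against 1389.5 (adjusted p = 0.15), and the shear-responsive factor Klf2 had 894 and 765 against 431. Glucocorticoid-induced genes were split, 4 higher and 1 lower of 13, with Errfi1 at 8824 and 9787 against 6283 and Angptl4 at 855 and 901 against 1472. Of 22 hypoxia-inducible factor targets, 4 were nominally higher and 0 lower, among them Hk2, a hexokinase, with 833 and 786 against 523, and Ldha, a lactate dehydrogenase, with 7836 and 7761 against 5754; the list median was 0.08, from -0.0427 to 0.159 under other settings.

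Type 1 cell genes were nominally lower in 4 of 13 and higher in 0 (median -0.38). Cav1, the caveolae protein of type 1 and endothelial cells, had 6900.4 and 5968 at 48 h against 13426 at 24 h (log2 -1.06, adjusted p = 0.248), Pdpn, podoplanin, had 1094 and 1193 against 2077, and the water channel Aqp5 4572 and 3897 against 5279.7 and 5774. Type 2 cell and surfactant genes were nominally lower in 3 of 22 and higher in 0, with 19 below 0 (median -0.20). Ctsh, a protease that processes surfactant proteins, had 5104 and 4629.7 against 8324, and Lpcat1, which makes the main surfactant phospholipid, 18079 and 16968 against 25133 and 23915. Endothelial genes were nominally lower in 5 of 30 and higher in 1 (Edn1, the vasoconstrictor endothelin-1, with 3072 and 3633 at 48 h against 1722 at 24 h). The airway lists were split, with medians that changed sign with the settings (-0.193 to 0.017 for club and secretory genes, -0.317 to 0.0563 for ciliated cell genes), and gave 1 higher and 1 lower of 13 club and secretory genes, and 0 higher and 1 lower of 8 ciliated cell genes. Alveolar fluid transport genes were lower in 2 of 13, cell junction genes in 1 of 22 and cytochromes P450 in 1 of 10, with 0, 0 and 1 higher.

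Extracellular matrix and fibroblast genes were nominally lower in 7 of 38 and higher in 2 (median -0.20). Col1a1, the main chain of type I collagen, had 3530.2 and 3809.9 at 48 h against 5918 at 24 h and 1772 and 1973 at 72 h. The collagen cross-linking enzyme Lox had 881 and 864 against 1564, while the matricellular gene Ccn1 was nominally higher, with 604 and 522 against 299 and 1572 and 1695 at 72 h. Timp1, an inhibitor of metalloproteinases, had 4735 and 3907 against 3448 (adjusted p = 0.792), and the matrix protein Tnc 111 and 126 against 119, under the required intensity at both times. TGF-beta ligands, receptors and SMADs gave 1 higher and 2 lower of 30.

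The cardiac and smooth muscle lists had the lowest medians. Cardiac muscle genes were nominally lower in 7 of 11 and higher in 0 (median -0.64), among them the atrial light chains Myl7, with 2062 and 2300.2 at 48 h against 4750.2 at 24 h, and Myl4, with 1836 and 1817 against 3447. The list also holds Myl1, given above, a light chain of fast skeletal muscle, which had its lowest difference (log2 -1.63). The summed intensity of the 10 genes of this list on type A was 15503 and 15544 at 48 h and 25717 at 24 h. Smooth muscle genes were nominally lower in 5 of 10 and higher in 0, with Acta2, smooth muscle actin, at 1994 and 2178 against 3926. Skeletal muscle genes were lower in 2 of 7 and higher in 0, with Acta1 at 224 and 163 against 849. How much heart or vessel muscle each sample held was not given in the labels used here, and its part in these values was not tested. Fat and lipid storage genes were lower in 3 of 13 and erythroid genes in 2 of 4, with 0 and 0 higher.

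Housekeeping lists had few or no nominal members. Proteasome subunits, respiratory chain genes and cytosolic ribosomal protein genes had 0 higher and 0 lower of 31, 31 and 20 genes, with medians of -0.20, -0.0247 and -0.13. Endoplasmic reticulum chaperones had 1 higher and 1 lower of 17, heat shock proteins 1 and 0 of 15, and cholesterol and fatty acid synthesis genes 0 and 1 of 19.

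**Figure D4:**
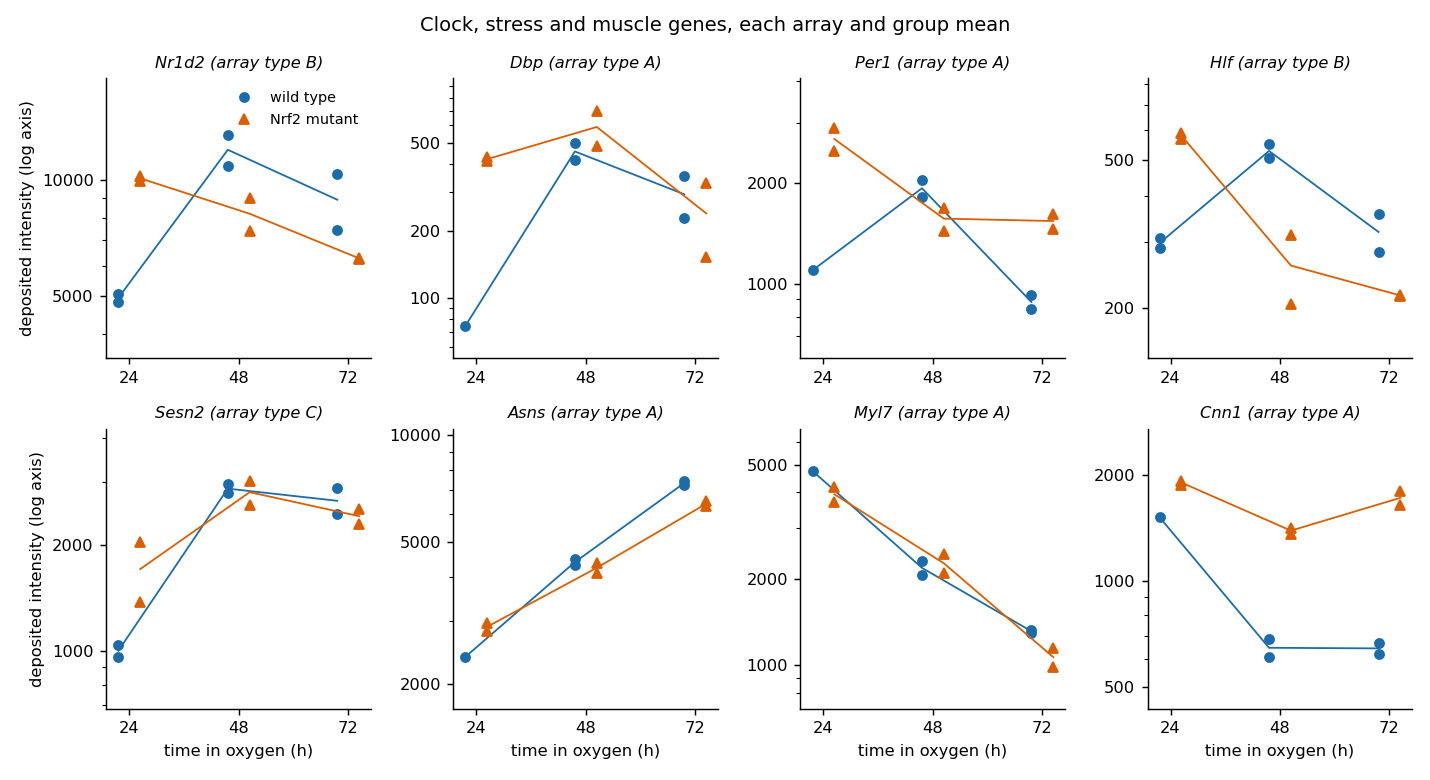
Deposited intensity on a log axis against time in oxygen for 4 clock genes (top) and for 2 stress genes and 2 muscle genes (bottom); circles are wild type arrays, triangles Nrf2 mutant arrays, and lines join group means. Nr1d2, Dbp, Per1, Hlf, Sesn2 and Asns were higher at 48 h than at 24 h in wild type lungs on every array, and Myl7 and Cnn1 lower.

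The same step was read in the Nrf2 mutant, whose arrays are separate from the wild type ones. There 133 probe sets passed the adjustment (0.513%), 46 higher and 87 lower at 48 h; with any 1 of the 4 mutant samples left out 13 to 16 passed. Probe sets called in both genotypes numbered 4, which is 36.4% of the wild type calls and 3.01% of the mutant calls. The fit gave each probe set 1 estimate of spread for both genotypes, so calls in the 2 steps are not independent. Tmem252 and the 2 probe sets without a gene name were higher at 48 h in both genotypes. Il1r2 rose in wild type lungs and fell in mutant lungs, where it had 198 and 209 at 48 h against 845 and 752 at 24 h (log2 -1.64, adjusted p = 0.00444). Across all 13116 genes the wild type and mutant differences correlated at r = -0.0348, a description over genes, which are not independent.

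The test of the difference between the steps passed 43 probe sets (0.166%), 35 with the wild type difference above the mutant one and 8 below. With wild type 24 h sample 1b left out, and with it type A, 0 passed in limma (1316 at an unadjusted p under 0.05); with wild type 24 h sample 1a left out 33 passed, and with any other single sample left out 7 to 10. The 4 named genes with the wild type difference furthest above, Mmp8, Mmp9, S100a8 and Csf3r, belong to the neutrophil list, of which 5 of 15 were called at their brightest probe set. S100a8 had 1635 and 1561 in the mutant at 48 h against 11887 and 10277 at 24 h, and its wild type difference exceeded the mutant one by 3.81 on the log2 scale (adjusted p = 0.00124). Csf3r, the receptor of the growth factor that drives neutrophil production, had 1689 and 1418 in wild type lungs at 48 h against 626 at 24 h, and 224 and 221 in mutant lungs at 48 h against 1752 and 1625 at 24 h. A second Csf3r probe set was also called (difference between the steps 3.29, adjusted p = 0.00227), while the brightest was not: it had 1884 and 1915 in wild type lungs at 48 h against 1157 at 24 h, and 1783 and 1325 in mutant lungs at 48 h against 1789 and 1512 at 24 h (difference 0.77, adjusted p = 0.463). The summed neutrophil list on type A was 16527 and 16814 in mutant lungs at 48 h and 35862 and 36466 at 24 h. Bright members such as S100a8 weigh most in this sum, which was not taken at 72 h. Ccl9 had a wild type difference 2.68 above the mutant one (adjusted p = 0.0169), and Ccr1 2.02 above (adjusted p = 0.011). Of the other named genes called in the wild type comparison, 2 passed the test of the difference. The called Il1r2 probe set had 3.47 (adjusted p = 0.00165) and Spsb3 had -2.06 (adjusted p = 0.0235). For Saa3, Tmem252, F13a1, Wdr18, Acot1 and Gdpd1 the test of the difference did not pass (adjusted p = 0.207, 0.325, 0.0544, 0.0942, 0.19 and 0.0567).

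Of the 8 probe sets with the wild type difference below the mutant one, the naming rule for this test gave Spon2, Eln, Kif5b and Fam172a. Spsb3, given above, was also among the 8. Of the 38 matrix and fibroblast genes 1, Spon2, was called in that direction at its brightest probe set. Eln, elastin, had 136 and 111 in wild type lungs at 48 h, under the required intensity, against 348 at 24 h. In mutant lungs it had 816 and 961 at 48 h against 124 and 191 at 24 h, the 24 h arrays also under that intensity. The brighter Eln probe set had 4729.7 and 3545 in wild type lungs at 48 h against 8479 at 24 h, and 19659 and 12546 in mutant lungs at 48 h against 5329 and 6371 at 24 h (difference between the steps -2.45, adjusted p = 0.0834). Spon2 and Fam172a were likewise below 24 h in wild type and above it in the mutant, with differences between the steps of -3.24 and -2.56 (adjusted p = 0.0332 and 0.00308), while the brightest Fam172a probe set had -0.43 (adjusted p = 0.712). The largest rises of the mutant step, by the same naming rule, were Eln, the inducible heat shock gene Hspa1a (4694 and 4434 at 48 h against 1348 and 974 at 24 h), Trmo and Ier5l; in wild type lungs that Hspa1a probe set had 806 and 933 at 48 h against 1063 and 580.2 at 24 h. The brighter Hspa1a probe set, on type A, had 8349 and 6788 at 48 h against 5672 at 24 h in wild type lungs (log2 0.40, adjusted p = 0.727), and 21573 and 16598 at 48 h against 8978 and 9495 at 24 h in mutant lungs (log2 1.03, adjusted p = 0.096). The largest falls of the mutant step were S100a8, Csf3r, Mmp9 and S100a9.

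Of the 41 lists, 25 had medians of the same sign in both genotypes and 16 of opposite sign. The same sign was held by ATF4 and cardiac muscle genes, among others, with 0.32 in wild type and 0.40 in mutant lungs for ATF4, and -0.64 and -0.73 for cardiac muscle. The mutant median of the cardiac list was the value of Myl1. Heat shock genes had 0.16 and 0.43, and smooth muscle genes -0.43 and -0.19. Medians of opposite sign were found, among others, for neutrophil genes (0.68 in wild type and -0.66 in mutant), matrix genes (-0.20 and 0.32), proteasome subunits (-0.20 and 0.35), type 1 cell genes (-0.38 and 0.22) and immediate early genes (0.24 and -0.21). The differences between these medians were not tested.

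**Figure D5:**
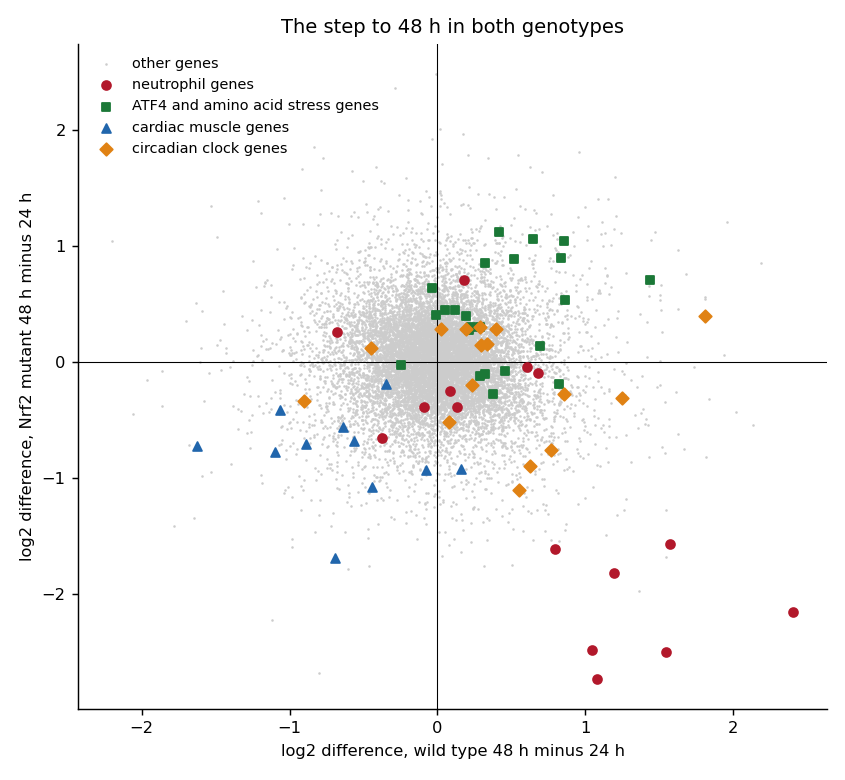
Each point is 1 gene at its brightest probe set, with its log2 difference (48 h minus 24 h) in wild type lungs on the horizontal axis and in Nrf2 mutant lungs on the vertical axis. A group of neutrophil genes lies far to the lower right, higher in wild type and lower in the mutant, while most ATF4 genes lie to the upper right and most cardiac genes to the lower left.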

How the data were processed

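RNA of mouse lung was measured on 3 Affymetrix designs. The deposited values are probe set intensities on a linear scale; in the deposited tables each array's mean intensity, trimmed of 2% at each end, lies near one common value, and the tool that made them is not given in the sources used here. All columns were mapped to samples by accession.

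The 35 arrays of lungs under oxygen (24, 48 and 72 h, both genotypes) entered the fit and the 11 arrays of unexposed lungs did not. For each type the 25th percentile of its oxygen arrays (77.4 on A, 121 on B and 102 on C) was added to the deposited intensities before log2 was taken, so folds of low genes are understated. Probe sets above the 40th percentile (193, 264 and 204) on at least 2 arrays were kept; that intensity is the one called required in the text. Affymetrix controls, 198 probe sets, were removed. Each type was fitted with limma 3.58.1 in R 4.3.3 (lmFit and eBayes, 1 mean per genotype and time, 6 groups), and p-values of the 25908 probe sets were adjusted together by Benjamini-Hochberg, with calls at 0.05. A value with ± is a log2 difference and its standard error. Of the probe sets 21195 had 1 gene symbol, 528 had several and 4185 had none; symbols were updated by gene ID from RefSeq. The script was tested on simulated data.

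Named genes were up to 12 rises and 12 falls by size among called probe sets without overlap of arrays, filled by smallest p; 4 in each direction for the mutant step and the difference between genotypes; up to 4 members of each of 41 lists by smallest p; 14 genes always named, of which 13 were tested; and the lung markers. Second and further probe sets of named genes were added after their values were seen. The members and lists were chosen with earlier results of these data known. Alternatives covered the added value, normalization, the filter, the groups in the fit, the variance model, the array types, a replicate block and each replicate left out. Same-numbered samples deviated together at r over 0.1 in 4 of 10 pairs of groups on type A, 15 of 15 on type B (0.121 to 0.251) and 0 of 15 on type C; the labels do not say what the numbers share. The fit reported has no block, and on type B, where every pair passed 0.1, the block changed the wild type calls to 6, against 7 without it. Group means of 2 arrays, and of 1 array for wild type at 24 h on type A, limit the precision.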

Additional observations from a re-analysis of the deposited data

Results flagged for a closer look

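The step from 24 h to 48 h differed between genotypes for 43 probe sets by the interaction test. The wild type difference was above the mutant one by 4.57 on the log2 scale for Mmp8 (2.41 in wild type and -2.16 in mutant lungs, adjusted p = 0.0211), 4.04 for Mmp9 (1.54 and -2.5, adjusted p = 0.0163), 3.81 for S100a8 (1.08 and -2.73, adjusted p = 0.00124) and 3.77 for Csf3r (1.21 and -2.56, adjusted p = 0.00239), all of them on type A with 1 wild type array at 24 h. The Mmp8 arrays at wild type 24 h and mutant 48 h lay under the required intensity, so the size of its difference rests on the value added before log2. The brightest Csf3r probe set did not pass, with 0.77 (0.68 and -0.09, adjusted p = 0.463). The difference was -3.24 for Spon2 (-2.2 and 1.05, adjusted p = 0.0332), -3.13 for Eln (-1.08 and 2.05, adjusted p = 0.031), -2.98 for Kif5b, the kinesin heavy chain (-1.52 and 1.47, adjusted p = 0.0361), and -2.56 for Fam172a (-1.1 and 1.47, adjusted p = 0.00308). Kif5b had 402 and 591 in wild type lungs at 48 h against 1541 at 24 h, and 1077 and 1521 in mutant lungs at 48 h against 471 and 364 at 24 h. The brightest Kif5b probe set, on type B, did not pass, with 0.08 (0.07 and -0.01, adjusted p = 0.928), and the other 2, with -0.25 and 0.46, did not either. The brightest Fam172a and Eln probe sets also did not pass the test. A second Spon2 probe set went the other way in wild type lungs, with a log2 difference of 1.33. The Spon2 arrays at wild type 48 h lay under the required intensity, as did the Eln arrays at wild type 48 h and mutant 24 h. The sizes of both differences therefore also rest on the value added before log2.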

How the results depend on the processing

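The count of called probe sets in the wild type comparison (11) was 21 with the stricter filter at the 60th percentile, 35 with a variance trend and robust estimation, 4 on array type A alone and 7 on types B and C alone, and 0 with only the groups compared or only wild type oxygen arrays in the fit; with 1 replicate left out it ranged from 0 to 7. The mutant count (133) was 86 with a floor in place of the added value, 73 with no filter, 7 with only the groups compared, 230 with the variance trend and 10 on types B and C; with 1 replicate left out it ranged from 13 to 16. The count for the difference between genotypes (43) was 78 with the stricter filter, 12 with only the groups compared, 81 with the variance trend and 17 on types B and C; with 1 replicate left out it ranged from 0 to 33. Some of these settings hold fewer samples or fewer probe sets by construction; for the others the cause was not tested. With the replicate block the counts were 10, 158 and 41, and on type B alone 6, 46 and 20, against 7, 35 and 18 without it; of the named genes called in the wild type comparison, Wdr18 lost its call (adjusted p = 0.057). Of 1320 values of single genes under alternatives, 1241 kept their direction and their side of the threshold, 49 lost a call, 23 gained one and 7 changed sign. Only the 9 named genes called in the main fit could lose a call, so the lost calls are to be read against their values and not against all 1320. The sign changes were all in genes with differences near 0. Sftpc gave 0.112 with quantile normalization, 0.0195 with the replicate block and -0.231 to 0.184 with 1 replicate left out, and Tnc gave 0.0399 with the replicate block and -0.0609 to 0.0512 with 1 left out. Nfe2l2 ranged from -0.0363 to 0.382 and Scgb1a1 from -0.19 to 0.312 with 1 replicate left out. Of the 41 list medians, 25 kept their sign under every alternative, the neutrophil (0.613 to 0.798), ATF4 (0.218 to 0.419), clock (0.297 to 0.4) and cardiac muscle (-0.683 to -0.609) lists among them. Type A, which held 4 of the 11 calls and all 15 neutrophil genes, had 1 wild type array at 24 h, so the spread at that time comes from the other groups. With wild type 24 h sample 1b left out, type A gave no value.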

Other observations

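Several single genes outside the leading groups also had smaller p than most. Sel1l, a component of the machinery that exports misfolded proteins from the endoplasmic reticulum, had 929 and 919.6 at 48 h against 351 at 24 h (log2 1.22, adjusted p = 0.198), while most chaperones of the same compartment lay near 0. Sntn, which encodes a protein of the ciliary tip, had 1659.6 and 1191 against 3428 and 2417 on type C in wild type lungs (log2 -0.98) and 1284 and 1332 at 48 h against 3387 and 2778 at 24 h in mutant lungs. The fatty acid carrier Cd36 had 604 and 623 at 48 h against 1167 at 24 h and Pdk4, a kinase that spares glucose, 394 and 573 against 883. The endothelial gene Clec14a had 4829 and 3946 at 48 h against 7924 and 5842 at 24 h, and Sema3c had 6456 and 6548 against 9534 and 11179, both on type B. None of these passed the adjustment.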
